A study of Mus musculus with 6 samples.

Results

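Amino acids enter and leave cells through carriers of the solute carrier (SLC) families, and 7 groups of gene symbols were followed here in mouse fetal liver: those that begin with Slc1a, Slc3a, Slc7a, Slc36a, Slc38a or Slc43a, and Slc6a9. The bead array held 76 probes with such a symbol, for 40 genes. A probe was kept where it was detected, with a p below 0.05 against negative control beads, on 3 or more of the 6 arrays. This left 36 probes of 25 genes, out of 17855 kept probes of 12228 genes on the whole array. Every kept probe was treated on its own, and 9 of the 25 genes had more than 1. One of the 25, Slc7a6os, matched by its letters and is not a transporter.

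The embryos were taken at E13.5, on a mixed C57/Bl6 and 129Sv background, and total RNA of the liver was measured. The 3 double transgenic arrays held R26-LSL-KITD816V:Vav-iCre liver, in which Cre driven by Vav, a gene of blood cells, removes a stop cassette so that KITD816V is made from the ROSA26 locus. KIT binds stem cell factor, and the D816V form signals without it. The 3 controls each carried 1 transgene: replicate 1 was a Vav-iCre single transgenic liver, and replicates 2 and 3 were R26-LSL-KITD816V single transgenic livers. No wild-type liver was analysed here, and whether an array held a single embryo is not stated.

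Heteromeric transporters pair a light chain of the SLC7 family, which moves the amino acid, with a heavy chain of the SLC3 family, which brings it to the cell surface. Other SLC7 members carry arginine and lysine alone, SLC1 members carry glutamate or small neutral amino acids with sodium, and SLC38 members carry glutamine and alanine with sodium. In the fetal liver both hepatoblasts and the blood cells around them take up amino acids, the erythroid cells also for globin and heme. When amino acids run short, the kinase GCN2 raises translation of the transcription factor ATF4, which binds amino acid response elements in several transporter genes.

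Start-site sequences are shown for 3 genes, Slc7a11, which rose, Slc7a9, which fell, and Slc1a4, which shares a motif with Slc7a11. They come from RefSeq on GRCm38.p6 and span 250 bases before to 50 bases from the start site on, read 5′ to 3′ on the gene's strand. Capitals mark matches to TGATGNAA, the core of the amino acid response element, on either strand. The first lies on chr3:50443564-50443863, minus strand, the second on chr7:35448842-35449141, plus strand, and the third on chr11:20332664-20332963, minus strand.
Slc7a11: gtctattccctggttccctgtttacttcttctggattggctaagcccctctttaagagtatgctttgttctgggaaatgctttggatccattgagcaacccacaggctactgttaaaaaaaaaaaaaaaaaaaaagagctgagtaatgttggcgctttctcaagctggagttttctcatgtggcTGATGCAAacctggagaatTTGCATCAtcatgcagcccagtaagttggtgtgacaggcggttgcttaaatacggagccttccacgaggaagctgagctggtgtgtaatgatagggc
Slc7a9: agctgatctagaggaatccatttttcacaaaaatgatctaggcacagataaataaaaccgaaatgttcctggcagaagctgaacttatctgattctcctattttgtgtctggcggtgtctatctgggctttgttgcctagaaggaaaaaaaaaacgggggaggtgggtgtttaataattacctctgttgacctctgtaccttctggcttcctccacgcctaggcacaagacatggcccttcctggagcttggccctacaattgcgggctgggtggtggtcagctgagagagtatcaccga
Slc1a4: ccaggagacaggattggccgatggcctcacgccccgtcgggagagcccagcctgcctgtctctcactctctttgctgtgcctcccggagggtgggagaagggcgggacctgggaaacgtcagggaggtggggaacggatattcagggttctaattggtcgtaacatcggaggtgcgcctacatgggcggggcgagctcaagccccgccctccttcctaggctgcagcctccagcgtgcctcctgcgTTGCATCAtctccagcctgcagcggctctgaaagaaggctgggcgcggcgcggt

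Of the 25 genes, 19 had such a window in the RefSeq table, with 29 windows in all. TGATGNAA was found in 4 of the 29 windows, of Slc7a11, Slc1a4 and Slc7a7, and in 3.97% of the 32851 windows of all genes. In Slc7a11 it occurred in both orientations, TGATGCAA from 66 bases and TTGCATCA from 47 bases before the start site. In Slc1a4 TTGCATCA began 4 bases before it. In Slc7a7, of which no kept probe passed, matches began 243, 141 and 1 bases before the start sites of its windows, which are not printed. The windows that hold them overlap, and the matches at 243 and 1 bases are the same TGATGCAA, read from different start sites. Slc7a3, the largest rise, and Slc38a2 were not among the genes with this motif. TGACNNNGC, the core of the antioxidant response element, was in 6 of the 29 windows, of Slc38a2, Slc43a1, Slc6a9 and Slc7a6, and in 12.4% of all windows. GTTAAT, a partial site of the hepatic factor HNF1, was in 1 of the 29 windows, of Slc7a7, and in 7.1% of all windows. These matches describe the letters of the windows, and none was tested for binding.

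Between 38.1% and 39.5% of the 45281 probes were detected per array, and 30 to 36 of the 76 transporter probes. The 6 arrays shared 1 chip, controls in its first 3 places, so place and group cannot be told apart. Levels below are background-corrected, quantile-normalized log2 intensities. Changes are double transgenic minus control on that scale, with the SE and the Benjamini-Hochberg adjusted p of limma over all 17855 kept probes. A change is called where the adjusted p is below 0.05. The brightest Kit probe read 9.21 ± 0.29 in controls and 9.98 ± 0.31 in double transgenic liver (SD, n = 3, limma adjusted p = 0.0867). Whether it reads the transgene is not known. Of the defining markers of fetal liver, Afp read 12.81 to 13.18 in controls and 11.44 to 12.02 in double transgenic liver, and the beta globin gene Hbb-b1 read 14.86 to 15.02 over the 6 arrays.

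Few transporter probes passed the adjusted p of 0.05. Slc7a3, a carrier of arginine and lysine, and Slc7a11, the cystine-glutamate exchanger, were higher in double transgenic liver. Slc7a9, a carrier of cystine and basic amino acids, was lower. Of the 36 probes 3 rose, 1 fell and 32 did not pass, while 15 of the 36 had an unadjusted p below 0.05. In simulated data 23% of probes changed by 1 were recovered, so a probe that did not pass is not shown to be unchanged. The 4 calls are 11.1% of the transporter probes, beside 8.10% of all kept probes (2.32% higher and 5.78% lower). The 3 rises alone are 8.33%, and 2 of them are Slc7a11 probes that entered the filter only through the double transgenic arrays. That share is therefore no measure of an excess of rises. The groups did not overlap in 12 of 36 probes, 7 higher and 5 lower in double transgenic liver (33.3%), beside 27.5% of all kept probes (14.8% higher and 12.7% lower). The median change of the transporter probes was -0.03, and that of all kept probes was 0.08.

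**Figure D1:**
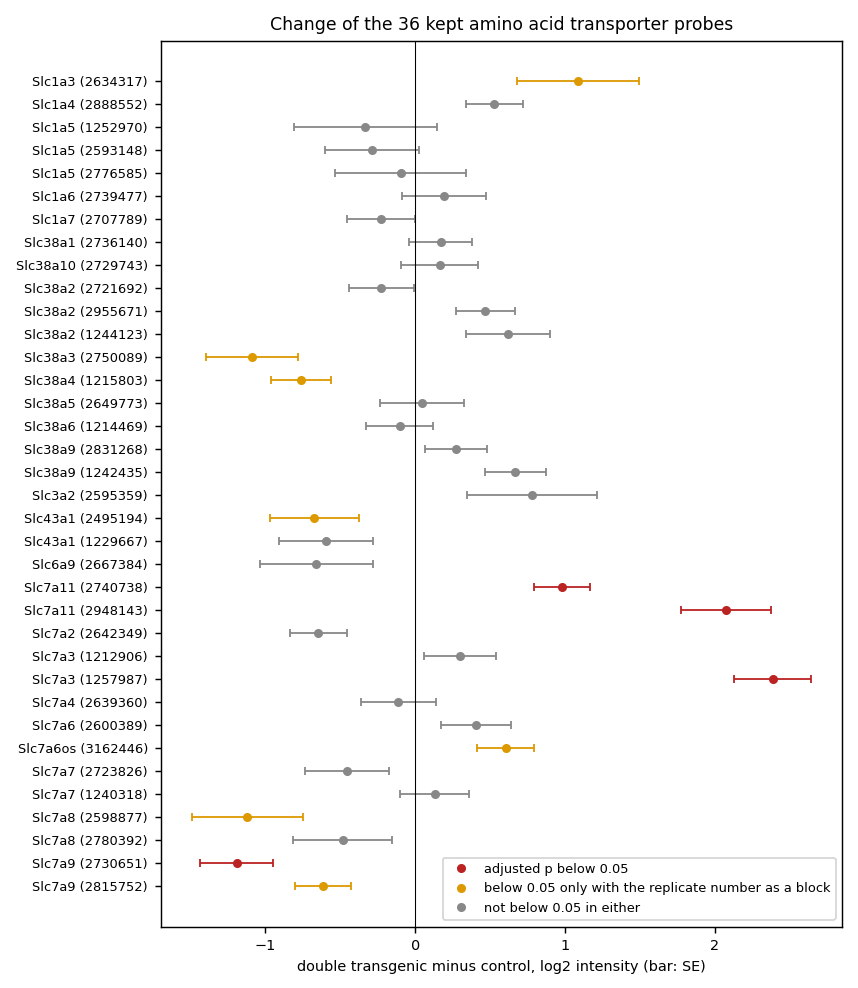
Change of each of the 36 kept probes, double transgenic minus control in log2 intensity, with the SE as a bar and the number of the probe in brackets. Red points passed an adjusted p of 0.05, orange ones only with the replicate number as a block; the red points are Slc7a3 at 2.38, Slc7a11 at 2.07 and 0.98, and Slc7a9 at -1.19.

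The labels do not state that replicate numbers pair the arrays. Same-numbered arrays were correlated (the check is described with the processing), and the fit with the number as a block gave more calls. With it 5 transporter probes rose and 6 fell (30.6% in all), beside 5.10% and 8.23% of all kept probes (13.3% in all). The 7 probes added were those of Slc1a3 and Slc7a6os among the rises, and of Slc7a8, Slc38a3, Slc38a4 and Slc43a1 and the second of Slc7a9 among the falls. Their blocked adjusted p is given with each gene below. Within the same number, 10 of 36 probes were higher in the double transgenic array of all 3 pairs, 13 were lower in all 3, and 13 went both ways. No such count was made over all kept probes, so these numbers do not set the transporters apart from other genes.

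**Figure D2:**
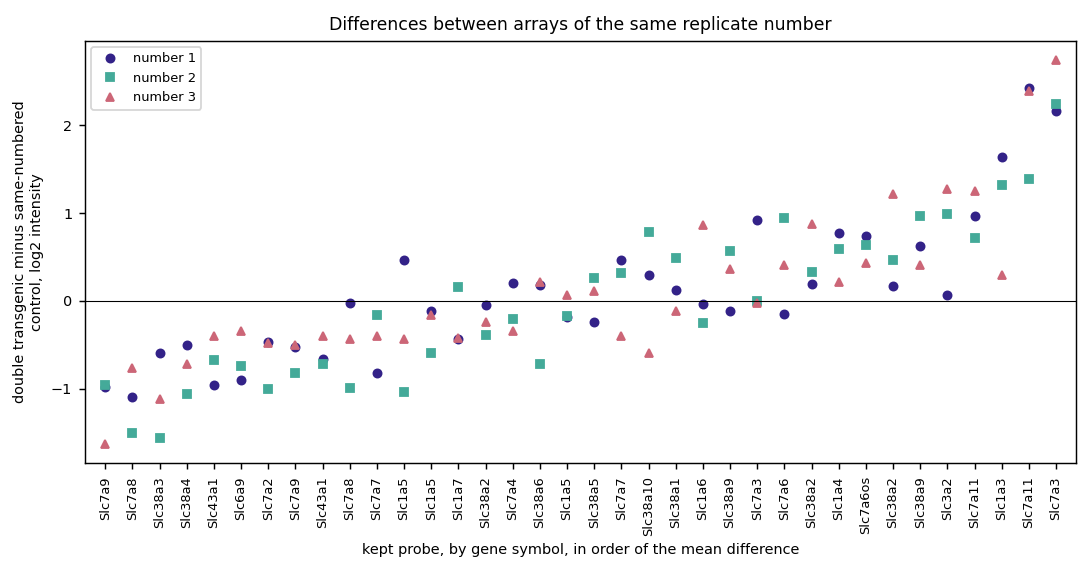
Difference between the double transgenic and the control array of the same replicate number for each kept probe, in log2 intensity, ordered by the mean over the 3 numbers. At the right edge all 3 points of a probe of Slc7a3 and of a probe of Slc7a11 lie above 1, and 13 probes have points on both sides of 0.

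Replicate 1 was often the lowest array of its group. In 15 of the 36 probes replicate 1 was the lowest array of both groups (41.7%, beside 25.6% of all kept probes), and in 3 it was the highest of both (8.33%, beside 25.4%). The 15 include all 3 probes of Slc1a5, both of Slc43a1, and those of Slc6a9, Slc38a5 and Slc3a2. Control replicate 1 is also the only Vav-iCre control, so its number and its genotype cannot be told apart. The median within-group SD was 0.35 over the transporter probes and 0.28 over all kept probes.

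Among the cationic amino acid carriers, Slc7a3 encodes CAT-3, which takes up arginine, lysine and ornithine without sodium. Its brighter probe, ILMN_1257987, read 6.21, 5.54 and 5.71 in control replicates 1 to 3. In double transgenic replicates 1 to 3 it read 8.37, 7.78 and 8.45. Every double transgenic array was thus more than 1 log2 unit above every control. The change was 2.38 (SE 0.26, limma adjusted p = 0.00136), or 5.22-fold. It passed in all 19 alternative settings, at 1.24 to 2.60, including the setting that reads the mean of the gene's probes.

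The second Slc7a3 probe, ILMN_1212906, did not show this. It was detected on 1 control and 2 double transgenic arrays and read 4.79, 5.44 and 5.14 in controls and 5.71, 5.44 and 5.11 in double transgenic liver. The groups overlapped, and the change was 0.30 (SE 0.24, limma adjusted p = 0.521). The files do not say which transcripts each probe reads.

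Slc7a2, the CAT-2 carrier through which hepatocytes take up arginine, had 1 kept probe of 5. It read 5.71, 6.10 and 5.83 in controls and 5.25, 5.11 and 5.35 in double transgenic liver. All double transgenic arrays lay below all controls, and the change of -0.65 (SE 0.19) did not pass (limma adjusted p = 0.0781). Slc7a4, a relative of the cationic carriers, stood at -0.11 (SE 0.25). Slc7a1, the CAT-1 carrier of most cells, and Slc7a14, a lysosomal relative, had no kept probe.

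**Figure D3:**
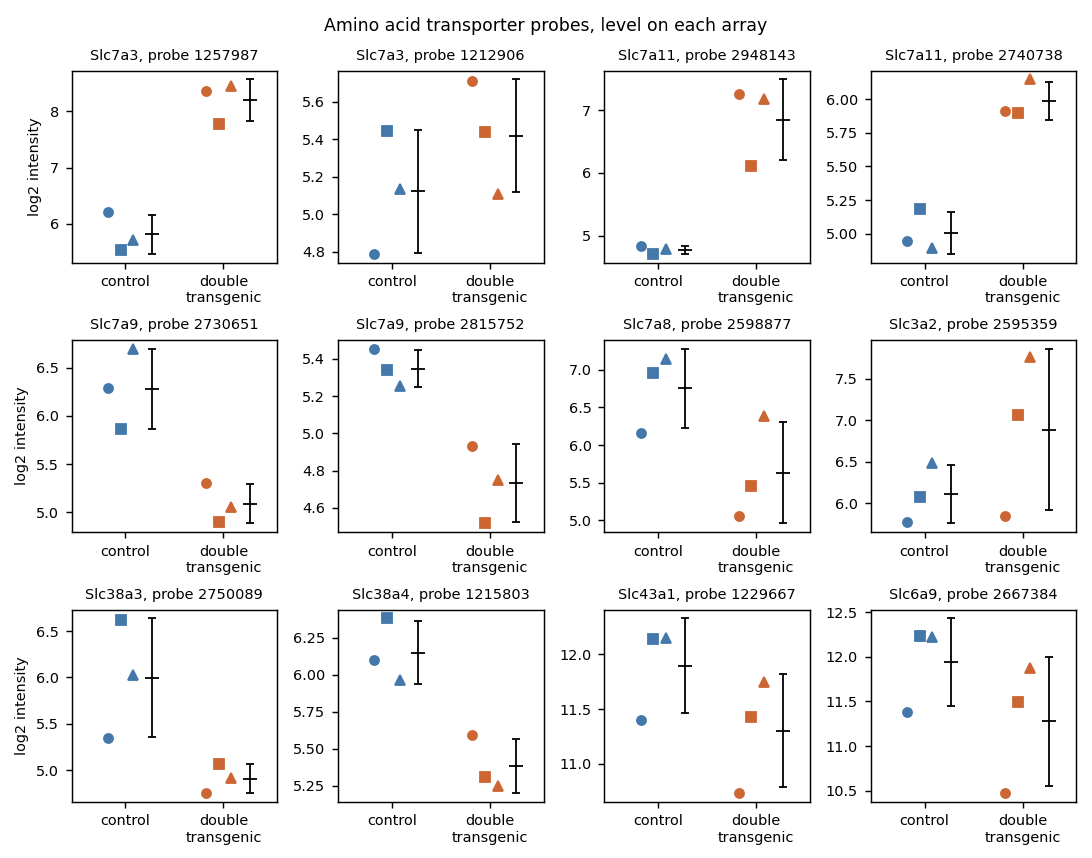
Level of 12 transporter probes on each array, in log2 intensity, with control arrays in blue and double transgenic arrays in orange. Circles, squares and triangles are replicates 1, 2 and 3, the black bar is the group mean with its SD, and each panel has its own axis; the groups separate in Slc7a3 (probe ILMN_1257987), both Slc7a11 and both Slc7a9 probes, Slc38a3 and Slc38a4, and overlap in the other 5 panels.

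Light chains of heteromeric transporters moved in both directions. Slc7a11 encodes xCT, which imports cystine in exchange for glutamate and so feeds glutathione synthesis. Probe ILMN_2948143 read 4.83, 4.71 and 4.78 in controls and 7.26, 6.10 and 7.17 in double transgenic liver. It was detected on no control array and on all 3 double transgenic arrays. The fitted change was 2.07 (SE 0.30, limma adjusted p = 0.00361). It passed in all 19 alternative settings, including the setting that reads the mean of the gene's probes. On this background-corrected scale the probe was at least 3.17-fold higher. Such a bound compares the detected group's mean with a floor on each dim array. The floor is the lowest detected signal there, or the probe's own value if that was higher. Each such bound holds for this background correction and offset only. With an offset of 50 the change of this probe was 1.30, and without background correction it was 0.80.

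The second Slc7a11 probe, ILMN_2740738, read 4.94, 5.18 and 4.89 in controls and 5.91, 5.90 and 6.15 in double transgenic liver. It too was detected on the double transgenic arrays only. The probe was at least 1.75-fold higher, and its fitted change was 0.98 (SE 0.19, limma adjusted p = 0.0129). Without background correction the change was 0.32 (adjusted p = 0.0778), and the call was also lost without control replicate 3 (0.92, adjusted p = 0.0720) or when double transgenic replicate 3 was left out (0.90, adjusted p = 0.0532). Both probes entered the filter only through the group in which they were high. Of the gene's 5 probes only these 2 were kept. The others, ILMN_2463432, ILMN_2568074 and ILMN_2574165, were detected on no array of either group. The Slc7a11 start-site window printed above is the one with TGATGNAA in both orientations.

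Slc7a9 encodes b0,+AT, the light chain that takes up cystine and basic amino acids in kidney tubules and gut. Probe ILMN_2730651 read 6.29, 5.87 and 6.69 in controls and 5.31, 4.90 and 5.06 in double transgenic liver, where it was detected on 1 array. All double transgenic values lay below all control values. The probe fell by 1.19 (SE 0.24, limma adjusted p = 0.0189). The call was lost without background correction (-0.41, adjusted p = 0.0775), without control replicate 3 (-0.99, adjusted p = 0.0767) and when double transgenic replicate 2 (-1.10, adjusted p = 0.0822) or 3 (-1.18, adjusted p = 0.0660) was left out.

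A second Slc7a9 probe, ILMN_2815752, read 5.45, 5.34 and 5.25 in controls and 4.93, 4.52 and 4.75 in double transgenic liver, with no double transgenic array detected. It was at least 1.12-fold lower, and its fitted change of -0.62 (SE 0.19) did not pass (limma adjusted p = 0.0917) but did with the block (adjusted p = 0.0487). This probe entered the filter only through the controls, where it was high, so its direction adds no support. Both kept Slc7a9 probes lay near the detection limit, and the gene's other probe, ILMN_2759963, was detected on no array. The printed Slc7a9 window holds none of the 3 motifs.

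Slc7a8, the LAT2 exchanger of neutral amino acids, had its brighter probe at 6.16, 6.96 and 7.14 in controls and at 5.06, 5.46 and 6.38 in double transgenic liver. Double transgenic replicate 3 lay above control replicate 1, so the groups overlapped. Within each number the double transgenic array was the lower one. The change was -1.12 (SE 0.37, limma adjusted p = 0.115, and adjusted p = 0.0136 with the block), and the second probe stood at -0.48 (SE 0.33). Slc7a6, the y+LAT2 exchanger, stood at 0.40 (SE 0.24, adjusted p = 0.366). The 2 probes of Slc7a7, the y+LAT1 exchanger also made in macrophages, disagreed in sign at 0.13 (SE 0.23) and -0.46 (SE 0.28), and neither passed. Slc7a10, Slc7a12, Slc7a13 and Slc7a15 had no kept probe.

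Slc3a2 encodes 4F2hc (CD98), the heavy chain of xCT, LAT2 and both y+LAT exchangers, and was read by 1 probe. Its levels were 5.78, 6.07 and 6.48 in controls and 5.84, 7.06 and 7.76 in double transgenic liver. Double transgenic replicate 1 lay among the controls and the other 2 above them. The change of 0.78 (SE 0.44) did not pass (limma adjusted p = 0.344, and adjusted p = 0.0932 with the block). The value turned on single arrays. It was 1.30 (adjusted p = 0.0263) without double transgenic replicate 1 and 0.34 (adjusted p = 0.686) without double transgenic replicate 3, and with array weights 0.96 (adjusted p = 0.0497). Slc3a1, the partner of Slc7a9, and Slc7a5, the LAT1 light chain, had no probe among the 76 and were not analysed here.

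None of the 7 kept probes of SLC1 carriers passed limma's adjusted p, and 2 had an unadjusted p below 0.05. Slc1a3, the glutamate carrier GLAST, read 6.46, 5.82 and 6.01 in controls and 8.09, 7.14 and 6.30 in double transgenic liver. The first 2 double transgenic arrays lay above all controls and replicate 3 among them. The change was 1.08 (SE 0.41, limma adjusted p = 0.159), and with the block it passed (adjusted p = 0.0469). It was 1.52 (adjusted p = 0.0451) without double transgenic replicate 3 and 0.63 (adjusted p = 0.240) without double transgenic replicate 1. Slc1a4, the ASCT1 carrier of alanine, serine and cysteine, read 8.45, 8.41 and 8.67 in controls and 9.23, 9.0 and 8.89 in double transgenic liver. These groups did not overlap, and the change of 0.53 (SE 0.19) did not pass (adjusted p = 0.137).

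Slc1a5, the ASCT2 carrier of glutamine, had 3 kept probes at -0.33, -0.29 and -0.10 (SE 0.31 to 0.48, limma adjusted p from 0.643 to 0.925). Their control values ran from 4.88 to 6.97 and their double transgenic values from 5.35 to 6.69, with replicate 1 lowest in both groups on every probe. Slc1a6 and Slc1a7, glutamate carriers best known from neurons and retina, stood at 0.19 (SE 0.28) and -0.23 (SE 0.23). Slc1a1 and Slc1a2 had no kept probe.

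The sodium-coupled neutral carriers of the SLC38 family had 11 kept probes of 8 genes. None passed limma's adjusted p, and 4 had an unadjusted p below 0.05. Slc38a3, the glutamine carrier SNAT3 of hepatocytes, read 5.35, 6.62 and 6.02 in controls and 4.75, 5.06 and 4.91 in double transgenic liver, where no array detected it. It entered the filter only through the controls, where it was high. The bound on this scale was a 1.75-fold fall, and the fitted change of -1.09 (SE 0.31) did not pass (limma adjusted p = 0.0665). It passed with the block (adjusted p = 0.0229), and without background correction the change was -0.38. The change was -1.41 (adjusted p = 0.0127) without control replicate 1, the lowest control, and -0.78 (adjusted p = 0.209) without control replicate 2, the highest. Slc38a4, the SNAT4 carrier of liver and placenta, read 6.10, 6.38 and 5.96 in controls and 5.59, 5.31 and 5.25 in double transgenic liver. The groups did not overlap, and the change of -0.76 (SE 0.20) did not pass (adjusted p = 0.0512). It passed with the block (adjusted p = 0.0350) and in 7 other settings of the 19.

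Slc38a2 encodes SNAT2, the system A carrier that cells raise when amino acids are scarce. Its brightest probe read 10.43, 10.70 and 10.52 in controls and 10.60, 11.16 and 11.74 in double transgenic liver. Only double transgenic replicate 1 lay within the control range, and the change was 0.62 (SE 0.28, limma adjusted p = 0.241). It was 0.90 (adjusted p = 0.0475) without that array and 0.33 (adjusted p = 0.511) without double transgenic replicate 3. A second bright probe stood at 0.47 (SE 0.20), with all double transgenic arrays above all controls, and the remaining one, near the detection limit, at -0.23 (SE 0.21). Neither passed.

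Slc38a9, a lysosomal carrier through which arginine signals to mTORC1, read 7.67, 7.35 and 7.47 in controls and 8.30, 8.32 and 7.87 in double transgenic liver on its brighter probe. The groups did not overlap, and the change of 0.67 (SE 0.20) did not pass (limma adjusted p = 0.0888). The second probe stood at 0.27 (SE 0.21). Another probe of this gene is listed under an older name, 9430067K09Rik, and so lies outside the rule on symbols. It rose by 0.81 (SE 0.19, adjusted p = 0.0356) and was picked out after its value was seen.

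Slc38a5, the SNAT5 carrier of glutamine and glycine, read 12.13, 12.59 and 12.58 in controls and 11.89, 12.85 and 12.70 in double transgenic liver. The groups overlapped in full, at 0.05 (SE 0.28, limma adjusted p = 0.948). Slc38a1 (0.17, SE 0.21), Slc38a6 (-0.10, SE 0.22) and Slc38a10 (0.16, SE 0.26) did not pass either. Slc38a8 and Slc38a11 had no kept probe.

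Slc43a1 encodes LAT3, a carrier of leucine and other large neutral amino acids made in liver and in erythroid cells. Its brighter probe read 11.39, 12.14 and 12.15 in controls and 10.73, 11.43 and 11.75 in double transgenic liver. The groups overlapped, and within each number the double transgenic array was lower. The 2 probes stood at -0.59 (SE 0.31, limma adjusted p = 0.308) and -0.67 (SE 0.29, adjusted p = 0.224). With the block these became adjusted p = 0.0526 and adjusted p = 0.0489.

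Slc6a9 encodes GlyT1, which brings glycine into erythroid cells for heme synthesis. It read 11.38, 12.23 and 12.22 in controls and 10.48, 11.49 and 11.87 in double transgenic liver. Replicate 1 was lowest in both groups, the groups overlapped, and every same-numbered pair was lower in double transgenic liver. The change was -0.66 (SE 0.38, limma adjusted p = 0.356, and adjusted p = 0.0528 with the block).

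The 15 genes with no kept probe include all 3 proton-coupled carriers measured, Slc36a1, Slc36a2 and Slc36a3, and Slc43a2 and Slc43a3. Of the 15, 9 were detected on no array and 6 on 1 or 2. Slc7a6os, which lies opposite Slc7a6 and encodes a protein that helps RNA polymerase II into the nucleus, read 6.05, 6.36 and 6.44 in controls and 6.78, 7.00 and 6.88 in double transgenic liver. Its groups did not overlap, at 0.60 (SE 0.19, limma adjusted p = 0.0988, and adjusted p = 0.0485 with the block).

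Members known as ATF4 targets included all 3 probes that rose, which belong to 2 genes. Of 7 genes with a kept probe, by their brightest probe, Slc7a3 and Slc7a11 rose and the other 5 did not pass. Their median change was 0.62, beside 0.07 over all 12228 genes, of which 8.63% were called, 2.33% higher and 6.30% lower. Slc7a11 entered the filter only through the double transgenic arrays, where it was high. Neither the count nor the median is therefore a measure of an excess of rises. Of the 5, Slc3a2, Slc38a2 and Slc1a4 stood above 0, and Slc6a9 and Slc1a5 below it. The wider arm of GCN2 and ATF4 had 6 rises and no falls among 17 genes, with a median of 0.73. Trib3, a pseudokinase that restrains ATF4, read 7.77, 6.62 and 6.87 in controls and 10.17, 10.57 and 11.48 in double transgenic liver, a change of 3.65 (SE 0.39, limma adjusted p = 0.00136). Chac1, which degrades glutathione, rose by 2.74 (SE 0.42), Ddit4, an inhibitor of mTORC1, by 2.36 (SE 0.40), and Eif4ebp1, a repressor of translation, by 0.97 (SE 0.18). Atf4 itself stood at 0.20 (SE 0.23, adjusted p = 0.682) and Asns, which makes asparagine, at 0.62 (SE 0.17, adjusted p = 0.0655).

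Members known from hepatocytes held no call without the block. Slc38a3, Slc38a4, Slc7a2 and Slc43a1 had a median change of -0.70, and none of the 4 passed limma's adjusted p, while 3 had an unadjusted p below 0.05. Slc38a3 entered the filter only through the controls, where it was high, so this median is no measure of an excess of falls. With the block Slc38a3 and Slc38a4 passed, as did the dimmer of the Slc43a1 probes. The liver epithelial markers fell in 18 of 18 kept genes, with a median of -2.03. Their summed level was 17.15 to 17.50 in controls and 15.39 to 15.99 in double transgenic liver. Apoh, a plasma glycoprotein, changed by -3.06 (SE 0.21, limma adjusted p = 0.000907), and Ahsg, which encodes fetuin A, by -1.97 (SE 0.21, adjusted p = 0.00136). In a bulk sample fewer cells of a type and less RNA per cell cannot be told apart, and the part of the liver epithelial fall in the values of these carriers was not tested.

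Of 15 kept erythroid markers 1 fell, a share near the 6.30% of all genes called lower. The list had a median of -0.11 and a summed level of 17.35 to 17.41 in controls and 16.94 to 17.24 in double transgenic liver. The call was Alas2, which starts heme synthesis in red cell precursors, at -1.35 (SE 0.28, limma adjusted p = 0.0189). Macrophage markers fell in 9 of 12, with a summed level of 13.17 to 13.21 in controls and 11.05 to 11.99 in double transgenic liver. Spic, needed by macrophages that recycle iron, fell by 2.67 (SE 0.18, adjusted p = 0.000907). The part of either in the transporter values was not tested.

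**Figure D4:**
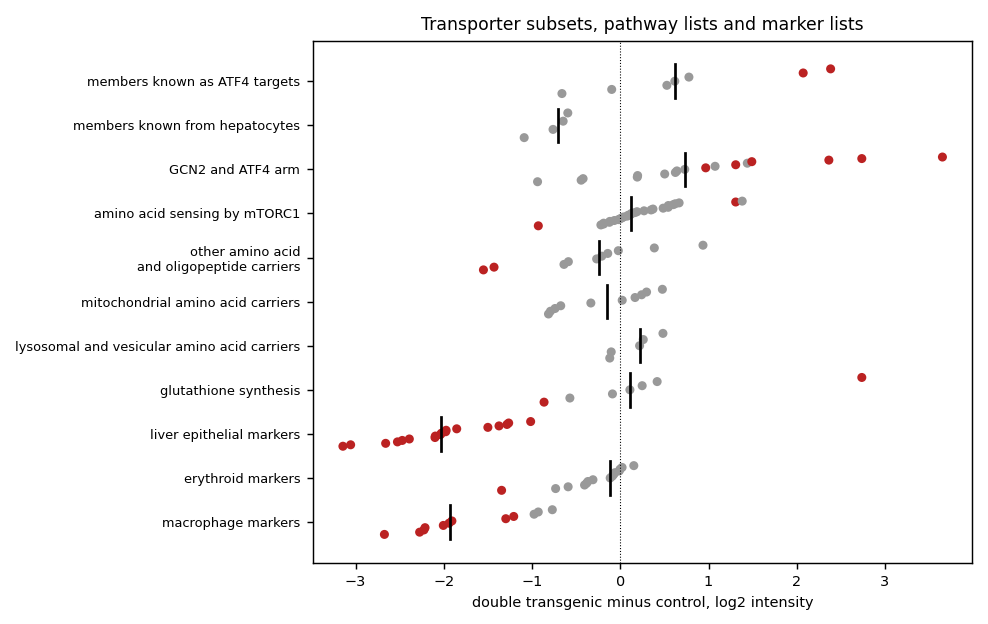
Change of each gene by its brightest kept probe, double transgenic minus control in log2 intensity, for transporter subsets, pathway lists and marker lists. Red points passed an adjusted p of 0.05, grey ones did not, and the black line is the median; the ATF4 target members lie around 0.62 and the liver epithelial markers around -2.03.

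Genes of amino acid sensing by mTORC1 mostly did not pass. Of 29 kept genes 1 rose and 1 fell, beside 8.63% called over all genes, so the share called was not above that of all genes. The median of the list was 0.13. The calls were Sesn2 and Sesn1, and Sestrin 2 is known to sense leucine and hold mTORC1 back. Sesn2 is also counted in the GCN2 and ATF4 arm. Sesn2 read 5.31, 5.84 and 5.68 in controls and 6.45, 6.90 and 7.41 in double transgenic liver, a rise of 1.31 (SE 0.27, limma adjusted p = 0.0197). Sesn1 read 10.49, 10.08 and 10.04 in controls and 9.60, 9.22 and 9.0 in double transgenic liver, and fell by 0.93 (SE 0.23, adjusted p = 0.0388).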

How the data were processed

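Signal intensity per probe and array was deposited by the authors on a linear scale, not yet log transformed and not normalized across arrays. The deposited detection p-value of each probe and array compares it with negative control beads, per the file headers. Per the submitters' processing notes GenomeStudio was used, with no version, and a background subtraction is not mentioned. The value table deposited by the authors differed from quantile-normalized intensity by at most 0.303% for any probe and served as an alternative.

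In R 4.3.3 with limma 3.58.1, neqc estimated the background from the detection p-values (offset 16), quantile-normalized and took log2. The 17855 probes with detection p below 0.05 on at least 3 arrays entered lmFit and eBayes with the group as the only term, two-sided, adjusted by Benjamini-Hochberg. The groups have 3 arrays each, which limits the precision. P-values measure the spread between these arrays, which may be technical in part. Lists were read by each gene's brightest kept probe, with no list test. Symbols of 8359 probes were updated through RefSeq for the lists, and 125 probes with ambiguous names were left out there. The members and lists were chosen with earlier results of these data known. Named were members with a call, heavy chains and their partners, other members by range, and of each list up to 4 called genes. Atf4, Asns, Slc25a15, Gclc, Gclm, Afp and Hbb-b1 were named outside this rule, after their values were seen, as were the array values of members with no call other than Slc3a2 and its partners.

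Deviations from the group mean correlated across probes between same-numbered arrays at 0.532, 0.277 and 0.199 for numbers 1 to 3. Each is over 0.1, so the numbers of the titles were taken as pairs in the blocked fit. Arrays of different numbers were not compared in this check, and the labels name no litter or batch, so the pairing is an assumption. Tested on simulated data for this comparison over 17855 probes, the steps recovered 23% of 100 probes changed by 1 and 88% of 100 changed by 2, and called 7 of 17655 unchanged probes. Fewer probes were changed there than the 1446 called in the data, and the arrays were drawn independently. These rates need not hold for the data. The design was tested under 19 alternatives: background, offset, scaling, filter, probes per gene, moderation, array weights, the block and arrays left out.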

Additional observations from a re-analysis of the deposited data

How the results depend on the processing

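The brighter probes of Slc7a3 and Slc7a11 passed in all 19 alternative settings. In the setting with the mean of a gene's probes, that mean stood in for each probe. No transporter probe with a call changed sign in any setting. With the replicate number as a block 5 transporter probes rose and 6 fell, and 2379 of all probes passed, 910 of them higher. Array weights gave 8 and 6, with 3728 of all probes (1745 higher, 1983 lower). The count of transporter falls was 0 without background correction, in the authors' value table and with no filter on dim probes. It was 2 with cyclic loess, a detection p limit of 0.01, 1 probe per gene and the mean of a gene's probes, and 3 without replicate 1 of both groups, where 2473 of all probes passed (1009 higher). Leaving out single arrays gave 2 to 5 transporter rises and 0 to 2 falls, and 745 to 1840 of all probes (134 to 624 higher, 611 to 1216 lower). Higher calls were 28.6% of the 1446 calls, against 20.5% with cyclic loess and 33.2% with median scaling, where the median of all probes moved to 0.13. Without background correction the brighter probes of Slc7a3 (1.24) and Slc7a11 (0.80) kept their calls, while Slc7a9 and the second Slc7a11 probe, both near the detection limit, lost theirs.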

Other observations

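Other amino acid carriers were mostly not called. Of 10 kept amino acid and oligopeptide carriers outside the families above, 2 fell and none rose, beside 6.30% and 2.33% of all genes, and the median of the list was -0.24. Slc6a13, the GAT2 carrier of GABA and taurine found in liver, read 10.19, 10.57 and 10.62 in controls and 9.34, 9.11 and 8.28 in double transgenic liver, and fell by 1.55 (SE 0.29, limma adjusted p = 0.0117). Slc15a3, a lysosomal peptide and histidine carrier of macrophages, read 7.41, 7.76 and 8.08 in controls and 5.96, 6.17 and 6.83 in double transgenic liver, and fell by 1.43 (SE 0.28, adjusted p = 0.0142). In both genes the groups did not overlap. The liver epithelial and macrophage markers fell beside them, and their part was not tested.

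None of 10 mitochondrial carriers passed by limma's adjusted p, 4 had an unadjusted p below 0.05, and the median was -0.16. Slc25a15, which brings ornithine into mitochondria for the urea cycle, came nearest at -0.79 (SE 0.21, adjusted p = 0.0534). Of 5 lysosomal and vesicular carriers, at -0.12 to 0.48, none passed limma's adjusted p and 0 had an unadjusted p below 0.05. Of 7 genes of glutathione synthesis and turnover, which the cystine carried by Slc7a11 feeds, Chac1 rose and Gss fell. Over all genes 2.33% were called higher and 6.30% lower. The median of the list was 0.11, and Chac1 is also counted in the GCN2 and ATF4 arm. Gss, glutathione synthetase, read 8.62, 8.52 and 8.41 in controls and 7.74, 7.66 and 7.55 in double transgenic liver, a change of -0.86 (SE 0.18, limma adjusted p = 0.0183). Gclc and Gclm, the subunits of the rate-limiting enzyme, stood at 0.42 (SE 0.33) and -0.09 (SE 0.31).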
